A study of Mus musculus with 17 samples.

Results

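The proteasome is the barrel-shaped protease that degrades ubiquitin-tagged proteins. Its 20S core stacks alpha rings, which gate entry, around beta rings, which hold the cutting sites. The constitutive cutting subunits are Psmb5, Psmb6 and Psmb7. In immune cells and under interferon they can be replaced, in the same order, by Psmb8, Psmb9 and Psmb10, which make the immunoproteasome and favour peptides that fit MHC class I. A 19S cap of ATPases (Psmc genes) and non-ATPases (Psmd genes) binds and unfolds substrates, PA28 and PA200 (Psme genes) are alternative caps, and Psmg genes and Pomp encode chaperones of core assembly. Dividing cells rely on the proteasome to remove cyclins and other regulators at set points of the cycle, and B cells in the germinal centre (GC) divide fast.

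The genes described here were the symbols that start with Psma, Psmb, Psmc, Psmd, Psme or Psmg followed by a digit, without pseudogenes, which made 50 of the 21848 symbols shared by the count matrices. Of these, 48 passed the filter on low counts in both experiments. The testis form Psma8 had 15 unique molecular identifiers (UMIs) in all cells of the time course and 10 in the sorted cells, the thymus form Psmb11 had 4 and 5, and neither was tested. The rule also took 3 symbols not counted here as subunits, caps or chaperones, called the other symbols below. They were Psmc3ip, which encodes the meiotic recombination factor Hop2, Psme3ip1, and Psme2b, a near copy of Psme2 whose reads may be shared with it.

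The study followed B1-8hi B cells, which carry a heavy chain specific for the hapten NP, after transfer into CD45.1/1 mice primed with ovalbumin (OVA) and immunised with NP-OVA. Most transferred cells were Ly75-/- and a minority had DEC-205, the product of Ly75, together with a doxycycline-sensitive H2B-mCherry division tracker driven through Vav-tTA, which is active throughout blood cells. Anti-DEC-OVA, an antibody that carries OVA to DEC-205, given at day 7 post-immunisation (dpi), loads the DEC-205+ GC B cells with antigen, so that T follicular helper cells drive them into the dark zone (DZ) for repeated divisions without new selection, called inertial cycling. In the time course, lymph node GC B cells came from 9 mice at 7 dpi (0 h). They came from 6 untreated and 9 treated mice at 9 dpi (48 h), and from 8 untreated and 7 treated mice at 10 dpi (72 h). They were pooled by hashtag antibodies into 2 libraries, a larger and a smaller experiment. The study gives the mutation counts of this time course for DEC-205+ GC B cells, and it profiled gene expression in the cells so counted. For the second data set, GC B cells with the CDK2 reporter DHB-tdTomato, alone or with H2B-GFP, were taken 72 h after anti-DEC-OVA and sorted by imaging into cells with cytoplasmic (CDK2hi, C) and nuclear (CDK2low, N) reporter, from 7 mice each contributing to both. All mice of that sort were treated, and C and N were separate libraries, so the reporter state and the library cannot be told apart.

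UMIs were summed per mouse, and levels are given as CPM, a gene's UMIs per 1000000 UMIs of the mouse after TMM scaling. Kept cells numbered 23698 in the time course (292 to 1045 per mouse, 1984426 to 13373185 UMIs) and 11833 in the sort (278 to 1679 per mouse and fraction, 3988733 to 20394909 UMIs). GC B cell markers were present in every group, with summed levels of 5106 ± 640.3 CPM (SD, n = 6) in untreated and 4299 ± 497.2 CPM (n = 9) in treated mice at 48 h. Markers of T cells summed to at most 42.4 CPM and those of myeloid or dendritic cells to at most 32.6 CPM in any mouse. The smaller experiment lost more cells to the filter on mitochondrial reads (3114 against 350 in the larger), and libraries shared 5 to 43 barcodes of kept cells per pair, out of 4385 to 13625 cells each. Sums over sorted cells cannot tell fewer cells of a type from less RNA per cell.

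To place the cutting subunits in the genome, Psmb5, Psmb6 and Psmb7, which rose in CPM at 48 h, were read beside Psmb8 and Psmb10, which did not. The 250 bases before their annotated start of transcription (GENCODE start on GRCm39) were taken. They are printed 5′ to 3′ on the gene's strand, with capitals at matches to motifs of known regulators of proteasome or interferon genes. The letters searched on both strands were TGACNNNGC (the antioxidant response element core, to which Nfe2l1 and Nfe2l2 bind), CCAAT (the box of factor NF-Y), CACGTG (an E-box), TTCNNNGAA (STAT factors) and the interferon-stimulated response element core, and no match shown overlaps another.
Psmb5, chr14:54855482-54855731, minus strand: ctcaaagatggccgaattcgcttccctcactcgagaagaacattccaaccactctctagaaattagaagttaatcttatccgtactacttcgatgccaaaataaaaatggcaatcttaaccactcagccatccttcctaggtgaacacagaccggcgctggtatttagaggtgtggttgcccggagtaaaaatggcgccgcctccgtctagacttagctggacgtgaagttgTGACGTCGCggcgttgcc
Psmb6, chr11:70415933-70416182, plus strand: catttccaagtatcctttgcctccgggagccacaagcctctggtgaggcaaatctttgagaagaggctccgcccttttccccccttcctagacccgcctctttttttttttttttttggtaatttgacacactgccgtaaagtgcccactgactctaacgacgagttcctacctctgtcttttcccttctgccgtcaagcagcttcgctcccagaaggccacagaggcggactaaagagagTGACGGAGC
Psmb7, chr2:38534100-38534349, minus strand: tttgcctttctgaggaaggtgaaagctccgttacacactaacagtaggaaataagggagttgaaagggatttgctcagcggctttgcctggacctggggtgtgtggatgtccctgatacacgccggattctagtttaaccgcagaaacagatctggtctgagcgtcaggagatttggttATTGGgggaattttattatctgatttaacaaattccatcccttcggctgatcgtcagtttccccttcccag
Psmb8, chr17:34416440-34416689, plus strand: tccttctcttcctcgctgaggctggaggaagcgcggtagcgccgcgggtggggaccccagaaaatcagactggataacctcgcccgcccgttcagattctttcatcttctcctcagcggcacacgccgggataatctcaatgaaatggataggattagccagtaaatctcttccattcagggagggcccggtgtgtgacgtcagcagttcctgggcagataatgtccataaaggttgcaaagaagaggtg
Psmb10, chr8:106665078-106665327, minus strand: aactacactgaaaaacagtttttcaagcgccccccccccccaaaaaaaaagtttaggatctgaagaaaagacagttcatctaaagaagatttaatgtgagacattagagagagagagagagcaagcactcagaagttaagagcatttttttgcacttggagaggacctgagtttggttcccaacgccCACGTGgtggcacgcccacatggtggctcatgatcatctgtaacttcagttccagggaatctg
Psmb5 and Psmb6 each held 1 antioxidant response element core, whose first base lay 18 and 9 bases before the start. Psmb7 held 1 CCAAT box, Psmb10 held 1 E-box and Psmb8 held none of the 5 motifs. The window of Psmb9 lies inside an exon of Tap1 on the opposite strand and is not printed. Over the 31 promoters of the tested constitutive core and cap genes, the antioxidant response element core occurred in 5 (16.1%), against 9.69% of all 21770 promoters of that length. CCAAT occurred in 14 of the 31 (45.2%, against 36.5%), the E-box in 3 (9.68%, against 6.26%), the interferon letters in 5 (16.1%, against 3.32%) and the STAT letters in 3 (9.68%, against 7.70%). These are matches of letters and not bound sites.

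The first question was how the proteasome genes differed between inertially cycling and untreated GC B cells at 48 h. Every constitutive part of the core and cap was higher in treated mice: all 31 tested genes of the alpha ring, the constitutive beta ring, the ATPases and the non-ATPases passed the test, with log2 fold changes from 0.14 to 0.44. The chaperones of core assembly rose too, while no immunoproteasome subunit and no gene of the PA28αβ and PA200 caps was called higher. In all, 40 of 48 symbols were higher and 1 was lower (edgeR quasi-likelihood test, Benjamini-Hochberg adjusted p under 0.05), where 26.3% of all 10220 genes tested were higher and 21.1% lower. The median log2 fold change was 0.28 over the members and 0.01 over all genes. Without the other symbols, the members' UMIs also rose as a sum per cell, to 143 ± 15.1 (n = 9) from 72.2 ± 11.2 (n = 6). UMIs of all genes were 15086 ± 1340 per cell with treatment and 8420.5 ± 1015 without. The TMM factors separated treated from untreated mice within each experiment at 48 h. In the larger they were 0.933 to 0.948 with and 0.966 to 0.992 without treatment. In the smaller they were 0.974 to 0.984 and 1.05 to 1.06. This scaling raises every CPM of treated beside untreated mice of an experiment and is part of the differences at 48 h.

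By class, the 6 ATPases (Psmc1 to Psmc6, the ring that unfolds substrates) summed to 791, 843 and 931 CPM (lowest, median and highest mouse) without treatment and to 1049, 1098 and 1116 CPM with it. The 11 non-ATPases (Psmd, which recognise and deubiquitinate substrates) ranged from 1549 to 1861 CPM in untreated and from 1944 to 2111 CPM in treated mice. The alpha ring genes ranged from 1662 to 1954 CPM and from 2099 to 2221 CPM. For these 3 classes no treated mouse overlapped an untreated one. The constitutive beta genes (Psmb1 to Psmb7) ranged from 1709 to 2187 CPM and from 2122 to 2458 CPM, which overlapped. Summed immunoproteasome and thymoproteasome subunits gave 1205 ± 133.6 CPM (n = 6) without and 1238 ± 178.4 CPM (n = 9) with treatment, and the activators 800.6 ± 29 and 767.5 ± 54.6 CPM, with overlapping groups in both. These sums have no test of their own.

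**Figure D1:**
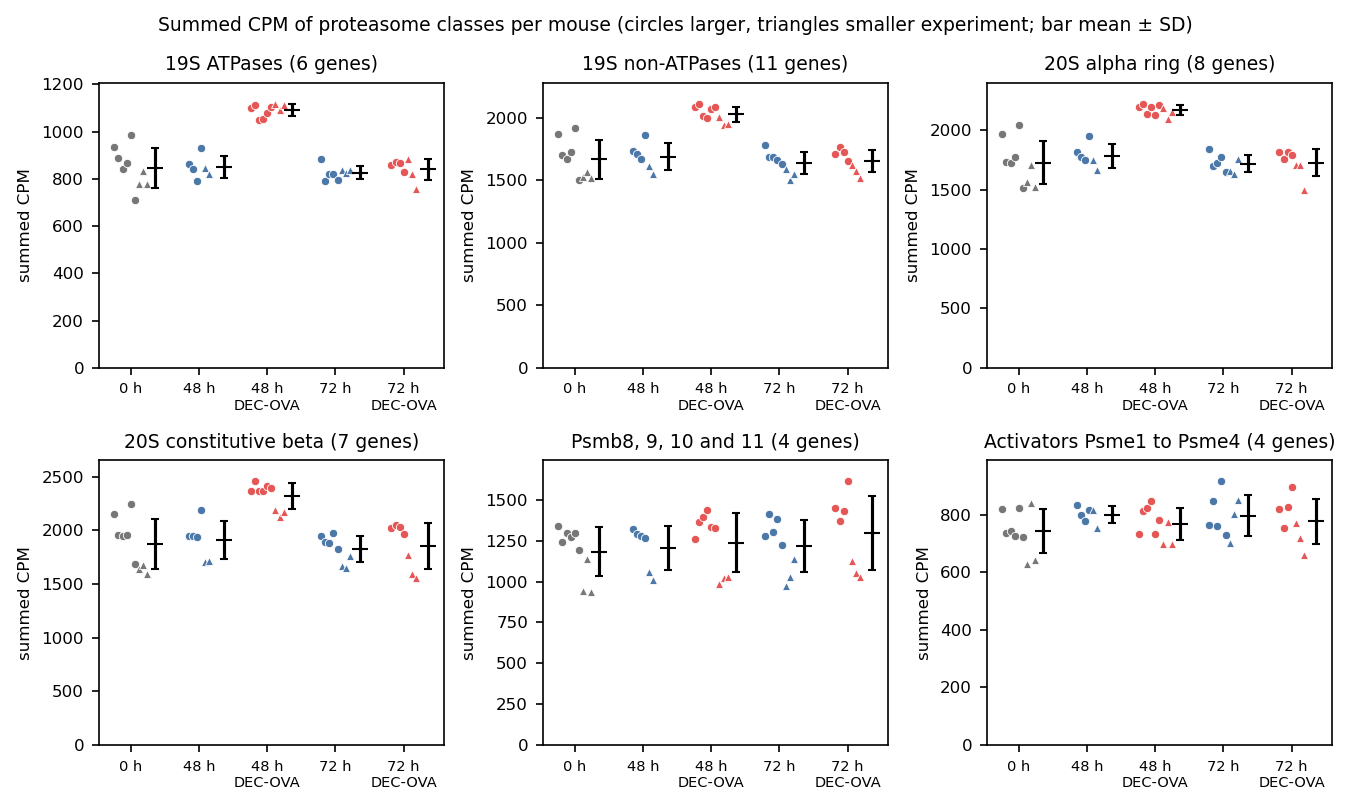
Summed CPM of 6 classes of proteasome genes (vertical axes, CPM) in each mouse of the time course, by time and treatment (horizontal axes), with circles for the larger and triangles for the smaller experiment and bars for mean ± SD. At 48 h the treated mice lie at 1049 to 1116 CPM for the ATPases against 791 to 931 CPM without treatment, while the immunoproteasome and activator panels overlap.

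Single genes showed the same sizes. Psmc1, an ATPase of the cap, had the largest rise among subunits: untreated mice had 125, 150 and 165 CPM (lowest, median, highest) and treated mice 188, 195 and 222 CPM, without overlap. Its log2 fold change was 0.44 ± 0.05 (SE), 1.35-fold, with adjusted p = 1.08e-08 by the edgeR quasi-likelihood test. Psmc4 rose 1.30-fold (adjusted p = 4.23e-08), from 144 to 169 CPM across untreated mice to 185 to 223 CPM across treated ones. Psmd6, a non-ATPase of the lid, rose 1.30-fold (adjusted p = 6.62e-08), from 92.3 to 116 CPM to 121 to 137 CPM. The groups did not overlap for these 3 genes, and among all 48 members 21 separated upwards and 0 downwards, where 5.86% of all genes separated upwards and 3.25% downwards.

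Among the constitutive cutting subunits, Psmb5 (chymotrypsin-like) had 194, 209 and 276 CPM in untreated and 264, 301 and 323 CPM in treated mice at 48 h. The highest untreated mouse lay inside the treated range, and the log2 fold change was 0.43 ± 0.06, 1.34-fold, with adjusted p = 1.03e-07 in edgeR's test. Psmb6 (caspase-like) had 183, 193 and 232 CPM against 217, 237 and 249 CPM, with overlap, a log2 fold change of 0.26 ± 0.05 and adjusted p = 3.12e-05. Psmb7 (trypsin-like) had 175, 184 and 212 CPM against 232, 244 and 253 CPM, without overlap, a log2 fold change of 0.35 ± 0.05 and adjusted p = 2.88e-07. All 3 rose, and Psmb5 was higher in the treated mice of each experiment: 311 ± 9.6 (n = 6) against 229 ± 32.7 CPM (n = 4) in the larger and 265 ± 1.7 (n = 3) against 201 ± 8.6 CPM (n = 2) in the smaller.

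Their immunoproteasome counterparts were not called higher in CPM, although the UMIs of that class rose per cell, as given above. Psmb8 had 571, 750 and 767 CPM in untreated and 567, 778 and 832 CPM in treated mice, a log2 fold change of 0.05 ± 0.03 that did not pass (adjusted p = 0.227, edgeR). Psmb9 had 309, 367 and 389 CPM against 309, 385 and 444 CPM (0.08 ± 0.06, adjusted p = 0.272). Psmb10 was the only member called lower: it had 130, 150 and 168 CPM without and 97.3, 135 and 164 CPM with treatment, a log2 fold change of -0.17 ± 0.07 with adjusted p = 0.0447. The groups of all 3 overlapped, and the call on Psmb10 was lost under 4 alternatives, among them the larger experiment alone (adjusted p = 0.208). Both experiments held the lower level, at 147 ± 13.3 against 156 ± 8.8 CPM in the larger and 107 ± 10 against 136 ± 8 CPM in the smaller.

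**Figure D2:**
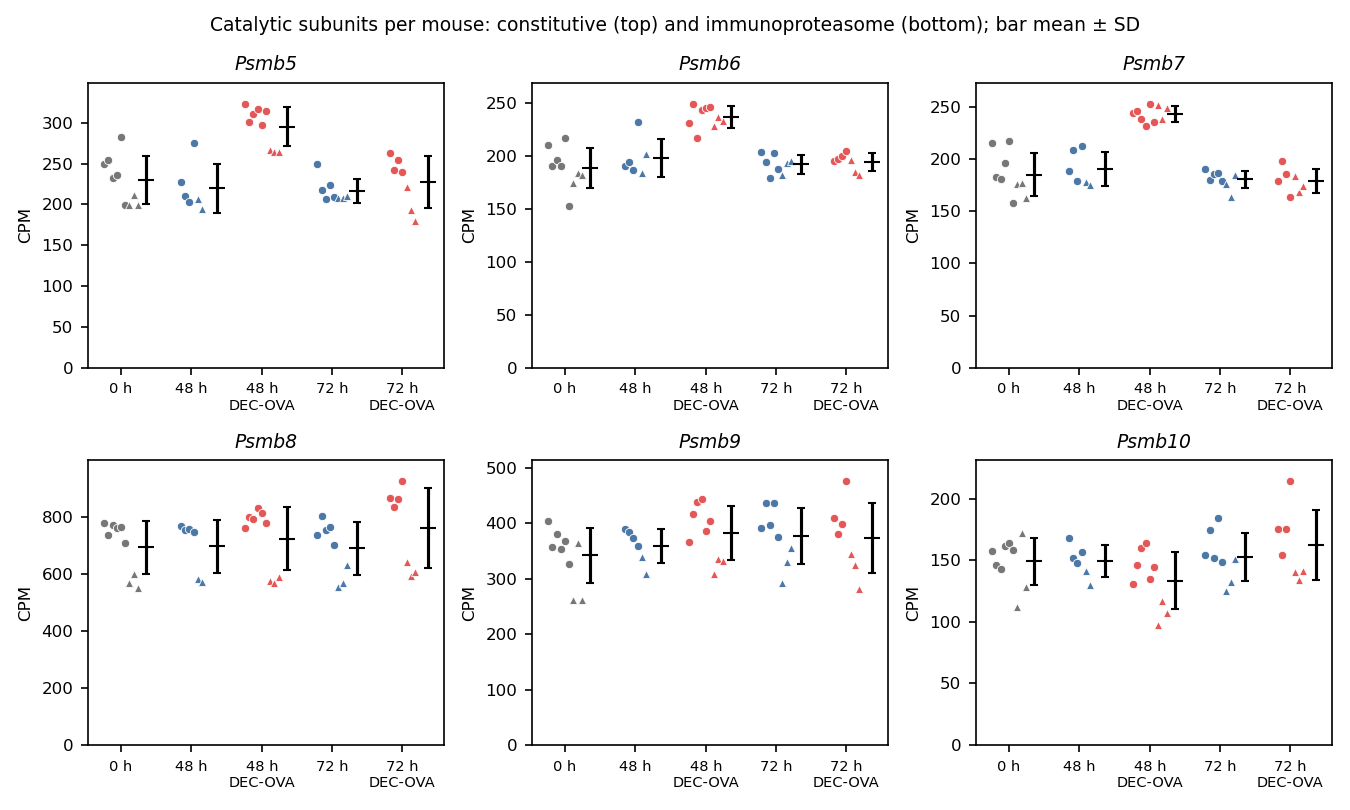
CPM (vertical axes) of the constitutive cutting subunits Psmb5, Psmb6 and Psmb7 (top) and of the immunoproteasome subunits Psmb8, Psmb9 and Psmb10 (bottom) per mouse by time and treatment (horizontal axes), with circles for the larger and triangles for the smaller experiment and bars for mean ± SD. Psmb7 lies at 232 to 253 CPM in treated mice at 48 h, above every untreated mouse of that time, and the Psmb8 points split by experiment rather than by treatment at 48 h.

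Because each immunoproteasome subunit replaces one constitutive subunit, the log2 ratio of the pair was followed per mouse. It compares groups and not the genes' levels with each other, and it has no test. For Psmb8 over Psmb5 the ratio was 1.66 ± 0.19 (n = 6) in untreated and 1.28 ± 0.13 (n = 9) in treated mice at 48 h, with ranges of 1.44 to 1.90 and 1.10 to 1.45. For Psmb10 over Psmb7 it was -0.35 ± 0.12 and -0.88 ± 0.29, and here the ranges (-0.46 to -0.16 and -1.37 to -0.50) did not overlap. For Psmb9 over Psmb6 it was 0.86 ± 0.19 and 0.68 ± 0.18, with overlap. By 72 h the treated mice had ratios of 1.73 ± 0.13, -0.16 ± 0.28 and 0.93 for the 3 pairs in the same order, beside 1.66 ± 0.18, -0.25 and 0.96 without treatment.

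Of the 4 genes of caps other than 19S, 1 was higher and none lower. That 1 of 4 lay near the 26.3% of all genes that were higher at 48 h, where 21.1% were lower. Psme1 and Psme2 form the interferon-inducible PA28αβ, and neither was called: Psme1 had 306, 379 and 406 CPM in untreated and 268, 341 and 409 CPM in treated mice (log2 fold change -0.11 ± 0.07, adjusted p = 0.181, edgeR), and it passed as lower with cells thinned to equal UMIs (-0.21, adjusted p = 0.016). Psme2 had 246, 257 and 282 CPM against 220, 255 and 271 CPM (-0.08 ± 0.07, adjusted p = 0.394). Psme4, which encodes PA200, had a log2 fold change of -0.02 ± 0.04 (adjusted p = 0.777). Psme3, the nuclear PA28γ, was higher, at 75.1, 88.3 and 97.1 CPM with against 60.5, 81.5 and 92.8 CPM without treatment (0.13 ± 0.05, adjusted p = 0.0321), and its groups overlapped. DESeq2 in place of edgeR took this last call over the threshold, at an adjusted p of 0.051.

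Assembly chaperones were mostly higher as well. All 4 Psmg genes were higher at 48 h (log2 fold changes 0.14 to 0.34), as were 2 of the 3 chaperones of the cap, Psmd5, Psmd9 and Psmd10. Of all genes 26.3% were higher and 21.1% lower. Psmg2, which pairs with Psmg1 to start the alpha ring, had 39.4, 41.5 and 51.1 CPM in untreated and 48.8, 54.5 and 60.2 CPM in treated mice (0.34 ± 0.07, adjusted p = 7.26e-05, edgeR). Of the 3 other symbols, Psmc3ip showed the largest change of the whole list (1.56-fold, log2 0.64 ± 0.08, adjusted p = 8.16e-08, edgeR). It went from 19.8, 25.7 and 30.4 CPM to 33.9, 38.8 and 48.4 CPM without overlap. Psme3ip1 was slightly higher (0.15 ± 0.05, adjusted p = 0.00966), but the sign turned with thinned cells (-0.077) and neither experiment alone called it. Psme2b did not pass (-0.08 ± 0.09, adjusted p = 0.518).

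At 72 h almost nothing of this difference was measured. Of the 48 members 1 was higher and 1 lower in treated mice, where 4.67% of all genes were higher and 3.88% lower, and no member separated the groups (0.225% of all genes separated upwards and 0.245% downwards). None of the 31 constitutive core and cap genes passed, with log2 fold changes between -0.10 and 0.11. Psmb8 was the member called higher, at 554, 719 and 803 CPM in untreated and 592, 835 and 924 CPM in treated mice (log2 0.16 ± 0.03, 1.12-fold, adjusted p = 0.00195, edgeR). Within experiments its means were 871 ± 37.5 (n = 4) against 751 ± 36.9 CPM (n = 5) in the larger and 613 ± 24.9 against 585 ± 40.9 CPM (n = 3 each) in the smaller. Psmg2 was the member called lower, at 40.9, 46.1 and 50.02 CPM without and 32.8, 38.1 and 46.1 CPM with treatment (log2 -0.26 ± 0.07, adjusted p = 0.0234). The smaller experiment alone called neither, and the larger alone called 4 members. Both calls were lost without a term for the experiment (adjusted p = 0.76 for Psmb8 and 0.0809 for Psmg2), and that on Psmg2 also with thinned cells (-0.084, adjusted p = 0.83).

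**Figure D3:**
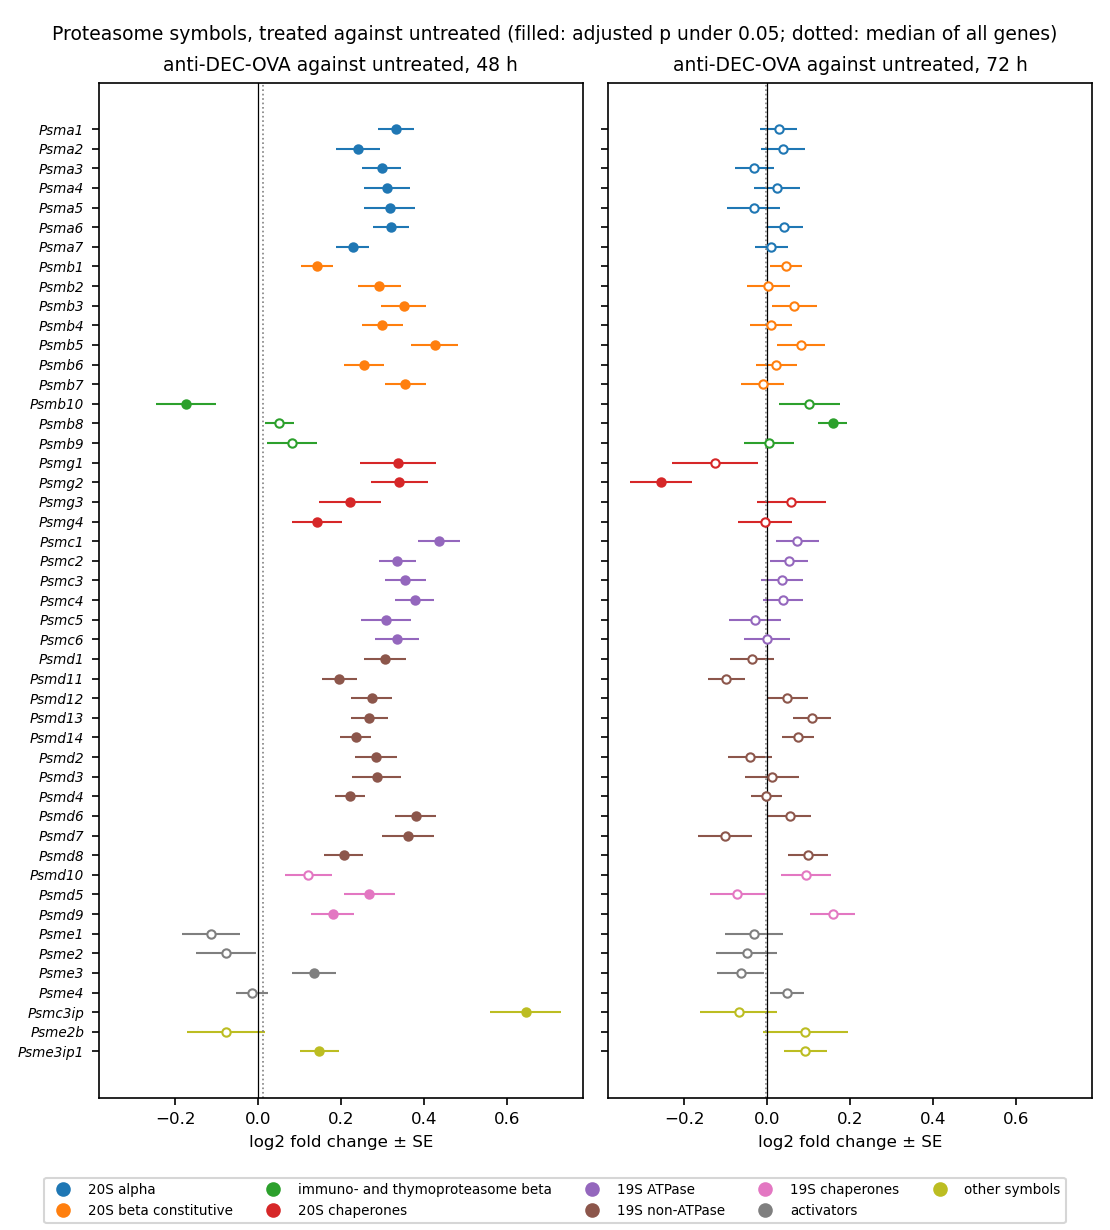
Log2 fold change ± SE (horizontal axes) of each of the 48 tested symbols (vertical axis, coloured by class), treated against untreated mice at 48 h (left) and 72 h (right); filled points have an adjusted p under 0.05 and the dotted line is the median of all genes. At 48 h the core and cap genes lie between 0.14 and 0.44 and at 72 h between -0.10 and 0.11.

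The difference between both treatment effects was itself tested in the same fit, as the effect at 48 h minus that at 72 h. It passed for 34 members in the direction of a larger effect at 48 h and for 1 in the other, where 18.5% and 13% of all genes did. The cutting subunits Psmb5 (log2 0.34 ± 0.08, adjusted p = 0.00109), Psmb6 (0.23 ± 0.07, 0.00785) and Psmb7 (0.37 ± 0.07, 0.000166) were among the 34, and Psmb10 was the 1 in the other direction (-0.28 ± 0.10, 0.0375), all by edgeR's quasi-likelihood test. Psmg2 gave 0.60 ± 0.10 (adjusted p = 3.2e-05), since its effect was positive at 48 h and negative at 72 h. The count depended on the data used, with 17 members in the larger and 13 in the smaller experiment alone, 18 with cells thinned to equal UMIs and 21 with cells of the B1-8hi light and heavy chain pairing only.

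Over time, the change lay in treated mice. Without treatment no member passed at 48 h or at 72 h against 0 h in edgeR or in DESeq2. At an unadjusted p under 0.05 edgeR gave 3 and 6 of the 48 members, beside 9.4% and 18.1% of all genes. At the adjusted threshold 0.127% and 4.41% of all genes passed. With treatment, 40 members were higher and 1 lower at 48 h than at 0 h (27.1% and 24.7% of all genes), and at 72 h 38 were lower and 2 higher than at 48 h (26.8% and 22.3%). The groups separated upwards for 15 members at 48 h against 0 h (3.4% of all genes) and downwards for 24 at 72 h against 48 h (6.78%). These comparisons share the treated mice at 48 h with the one above. All 31 core and cap genes were in the 40 and in the 38. The 2 that were higher at 72 h than at 48 h were Psmb8 (log2 0.11 ± 0.03, adjusted p = 0.00501) and Psmb10 (0.32 ± 0.07, adjusted p = 0.000229, both edgeR), while Psmb5, Psmb6 and Psmb7 fell by 0.35, 0.28 and 0.44 on the log2 scale. The ATPase sum was 847 ± 85.1 CPM at 0 h, 1090 ± 25.2 CPM in treated mice at 48 h and 840 ± 43.5 CPM in treated mice at 72 h.

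Phases of the cell cycle, called from the transcripts of the same cells, also moved with treatment at 48 h. Cells called G1 were 51.9 ± 4.3% (n = 6) in untreated and 20.8 ± 2.7% (n = 9) in treated mice, while S made up 21.6 ± 2.8% and 36.6 ± 2.4% and G2M 26.5 ± 3.8% and 42.6 ± 3.0%. The members' UMIs were therefore summed again within each phase. Among G1 cells 9 of 47 tested members were higher (4.79% of all genes), among S cells 11 of 48 (5.48%) and among G2M cells 25 of 48 (9.61%), and none was lower (4.77%, 5.91% and 8% of all genes were). The median log2 fold changes were 0.13, 0.12 and 0.19, below the 0.28 over all cells. Summed over the members without the 3 other symbols, levels were 7607 CPM in G1, 9336 CPM in S and 8843 CPM in G2M cells of untreated mice. In treated mice they were 8121, 10169 and 9818 CPM. These counts fell to 2, 2 and 4 without a term for the experiment in the model.

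Psmb5 passed in every phase, with log2 fold changes of 0.28 ± 0.07 in G1, 0.30 ± 0.05 in S and 0.30 ± 0.07 in G2M cells (adjusted p = 0.00811, 0.000152 and 0.00131, edgeR). Psmc1 gave 0.38 ± 0.07, 0.27 ± 0.07 and 0.23 ± 0.05, and also passed in each. Together with Psmd6 and the alpha ring gene Psma1, which was picked after its values were seen, they made 4 of the 47 members tested in all phases that passed in all of them, where 1.39% of all genes did. The immunoproteasome subunits passed in no phase, with Psmb8 at 0.05, 0.06 and 0.00 and Psmb10 at -0.13, -0.12 and -0.09. Psmb9 was at 0.13, -0.004 and -0.03, and its G1 value lay near the members' median there. Psmc3ip, with the largest change over all cells (0.64), was not tested among G1 cells. It gave 0.21 in S and 0.31 in G2M cells (adjusted p = 0.0471 and 0.034, edgeR). Other values moved with treatment as well: markers of naive or memory B cells summed to 155 ± 38 CPM in treated against 316 ± 67.8 CPM in untreated mice at 48 h. Fcer2a made up most of that sum, at 112 against 247 CPM. Markers of plasma cells summed to 1569 ± 277.3 against 1166 ± 284.1 CPM. Most of the plasma cell sum was Jchain, at 1386 against 979 CPM, while Xbp1 had 166 against 158 CPM, Sdc1 2.07 against 1.81 CPM, Tnfrsf17 1.11 against 0.42 CPM, Irf4 10.5 against 21.7 CPM and Prdm1 2.88 against 5.27 CPM. Of 5 tested plasma cell markers 1 passed as higher and 1 as lower, of 6 naive or memory B cell markers 3 as lower and of 9 GC B cell markers 7 as lower and 1 as higher. The T cell markers, at a sum of 2.10 against 7.22 CPM, were lower in 3 of 3. Their part in the result was not tested.

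Genes that work with the proteasome but lie outside the symbol rule were counted from fixed lists, to be read against the 26.3% of all genes higher and 21.1% lower at 48 h, and those named here were picked after their values were seen. Of 7 further parts and assembly factors 5 were higher at 48 h and none lower; they included Txnl1, a thioredoxin bound to the cap (log2 0.50), Adrm1, a ubiquitin receptor (0.25), and Pomp, which matures the core (0.14). Pomp had 242 to 305 CPM in untreated and 262 to 330 CPM in treated mice. Of the 3 ubiquitin enzymes bound to the proteasome, the deubiquitinases Usp14 and Uchl5 were higher by 0.34 and 0.33 on the log2 scale and the ligase Ube3c was lower (-0.15). Of 4 regulators of proteasome genes none was higher and 1, Ddi2, which cleaves and so activates Nfe2l1, was lower (-0.16), a share near that of all genes. Nfe2l1, the transcription factor of the proteasome bounce-back response, had 18.99, 22.1 and 23.2 CPM in untreated and 16.8, 20.3 and 22.0 CPM in treated mice and did not pass (-0.12). Of 9 genes of substrate delivery 5 and of 6 genes of ubiquitin and its activating enzymes 3 were higher, with none lower.

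Peptide transport and MHC class I, the pathway that the immunoproteasome feeds, was counted next. Of 10 genes none was higher and 6 were lower at 48 h, where 26.3% and 21.1% of all genes were, and the 6 included the interferon regulator Irf1 (log2 -0.65), the peptide-loading chaperone Tapbp (-0.50), the class I transactivator Nlrc5 (-0.49), the class I heavy chain H2-K1 (-0.36) and the transporter Tap2 (-0.27). At 72 h 4 of these 10 were lower, beside 3.88% of all genes. The hashtags that assigned cells to mice included antibodies to MHC class I; their part in the result was not tested. The genes of the anaphase-promoting complex and its partners, the ubiquitin ligase that hands mitotic cyclins to the proteasome, were higher in 16 of 19 and lower in none.

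Genes of other housekeeping complexes were also higher at 48 h, beside 26.3% of all genes higher and 21.1% lower. All 8 subunits of the CCT chaperonin, which folds actin and tubulin, were higher at 48 h with a median log2 fold change of 0.38, and 70 of 78 mitochondrial ribosomal proteins were higher and none lower, with a median of 0.27. Of 83 cytosolic ribosomal proteins 61 were higher and 2 lower, with a median of 0.13. At 72 h these 3 sets gave 0, 5 and 0 higher and 0, 0 and 39 lower, where 4.67% and 3.88% of all genes were, so the 5 of 78 lay near the share of all genes.

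The second data set asked how the genes differed between CDK2hi and CDK2low cells of the same mice 72 h after anti-DEC-OVA. The study limited its own comparison to cells with a DZ transcriptional phenotype. Here all kept cells entered and zones were not called, so C and N may differ in their share of DZ cells. The part of zone in the result was not tested. In CDK2hi cells all 31 core and cap genes and all 7 chaperones of assembly were higher, with log2 fold changes from 0.13 to 0.81, while Psmb10, Psme1 and Psme4 were lower. In all, 44 of 48 members were higher and 3 lower (edgeR with the mouse as block), where 36.5% of all 10120 genes tested were higher and 38.6% lower, and the median was 0.39 over members and -0.02 over all genes. In every one of the 7 mice the C value exceeded the N value for 42 members and fell short of it for 3, where 30.9% and 30.5% of all genes did so. The groups separated for 36 members upwards and 1 downwards (22.5% and 17.4% of all genes). The TMM factors separated the fractions, at 0.913 to 0.949 in C and 1.05 to 1.09 in N. This scaling raises every CPM of C beside N and is part of all these differences. Without the 3 other symbols, CDK2hi cells held 96.2 ± 10.1 member UMIs per cell and CDK2low cells 105 ± 15.9. UMIs of all genes were 10973 ± 739 and 13409 ± 1270 per cell. This member total was thus lower in C per cell while it was higher in CPM. By class, the ATPases had 10.7 ± 1.0 UMIs per cell in C and 10.2 ± 1.6 in N and the alpha ring 20.1 ± 2.3 and 19.97 ± 3.4. Means were lower in C for the non-ATPases (19.5 ± 1.9 and 20.9 ± 3.0) and the constitutive beta ring (21.9 ± 2.4 and 23.0 ± 3.5). The immunoproteasome and thymoproteasome subunits had 13.4 ± 1.4 and 17.1 ± 2.6, and the activators 7.28 ± 0.81 and 10.6 ± 1.5.

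In the sort the ATPase sum ranged from 995 to 1094 CPM in C and from 636 to 763 CPM in N. Psmc3 had 247, 250 and 258 CPM (lowest, median and highest mouse) in C and 130, 151 and 154 CPM in N, 1.71-fold with a log2 value of 0.77 ± 0.03 (adjusted p = 5.77e-18, edgeR). Psmc4 had 183, 206 and 212 CPM against 111, 129 and 133 CPM, 1.61-fold (adjusted p = 9.94e-18). The non-ATPase sum ranged from 1824 to 2008 CPM and from 1327 to 1560 CPM, and the alpha ring sum from 1848 to 2100 CPM and from 1233 to 1549 CPM, each without overlap. Psma5 of the alpha ring, at 156, 164 and 182 CPM against 88.0, 111 and 128 CPM, was 1.52-fold higher (adjusted p = 4.5e-14). The core chaperone Psmg2 gave the largest ratio of a proteasome gene, with 44.8, 49.7 and 52.0 CPM in C and 24.8, 28.9 and 29.6 CPM in N (1.75-fold, adjusted p = 2.98e-14).

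Of the cutting subunits, Psmb5 had 230, 260 and 275 CPM in C and 166, 198 and 209 CPM in N (log2 0.43 ± 0.02, adjusted p = 3.64e-14, edgeR). Psmb6 had 224, 228 and 249 CPM against 153, 159 and 170 CPM (0.52 ± 0.03, adjusted p = 1.4e-15), and Psmb7 179, 196 and 216 CPM against 124, 142 and 160.5 CPM (0.48 ± 0.03, adjusted p = 8.23e-15). No C mouse overlapped an N mouse for these 3. The immunoproteasome subunits split 3 ways. Psmb9 was higher in C like the constitutive genes, at 354, 384 and 460 CPM against 253, 292 and 334 CPM (0.46 ± 0.02, adjusted p = 7.03e-15). Psmb8 differed little, at 727, 785 and 821 CPM against 673, 749 and 798 CPM (0.08 ± 0.02, adjusted p = 0.000806, edgeR). It was higher in C in 7 of 7 mice after TMM scaling, which shifts C upwards beside N by more than this difference. The call on Psmb8 was lost with B1-8hi pairing cells only (0.04, adjusted p = 0.145) and without pairing by mouse (adjusted p = 0.0828), while among G1 cells its log2 value was 0.25 (adjusted p = 4.91e-08) and among S and G2M cells the sign turned (-0.026 and -0.042). Psmb10 was lower in C in 7 of 7 mice, at 117, 130 and 144 CPM against 147, 163 and 186 CPM (-0.34 ± 0.03, 0.788-fold, adjusted p = 2.08e-10).

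**Figure D4:**
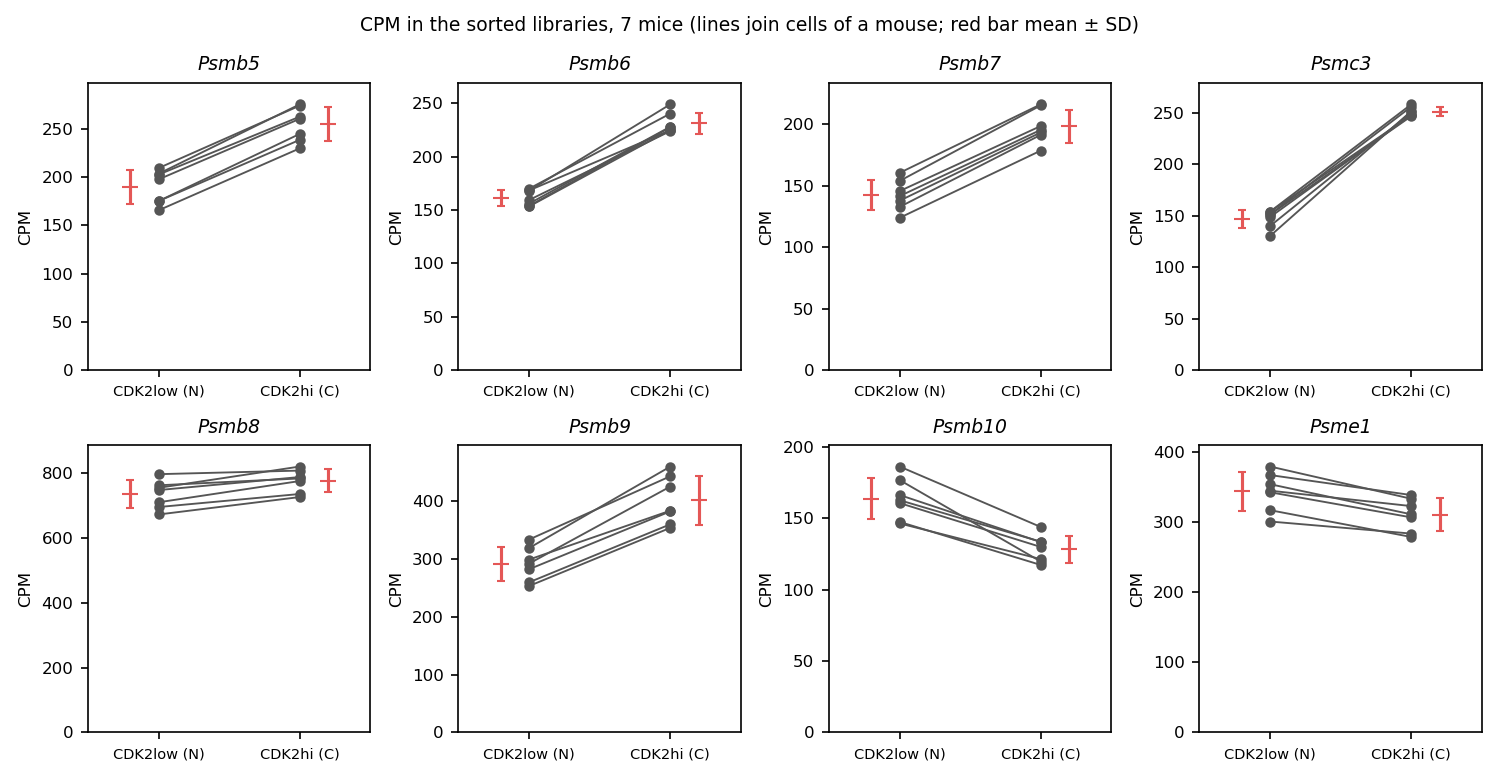
CPM (vertical axes) of 8 proteasome genes in CDK2low (N) and CDK2hi (C) cells (horizontal axes), with lines joining both fractions of each of the 7 mice and red bars for mean ± SD. Psmb5, Psmb6, Psmb7, Psmb9 and Psmc3 rise in every mouse from N to C, and Psmb10 and Psme1 fall in every mouse.

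The ratios of the exchanged pairs were lower in C in 7 of 7 mice for each of the 3 pairs, and their ranges did not overlap for 2 of them. For Psmb8 over Psmb5 the log2 ratio was 1.61 ± 0.07 in C and 1.96 ± 0.06 in N (n = 7 each), with ranges of 1.52 to 1.70 and 1.88 to 2.02. For Psmb10 over Psmb7 it was -0.63 ± 0.11 and 0.20 ± 0.14, with ranges of -0.73 to -0.42 and 0.02 to 0.43. For Psmb9 over Psmb6 it was 0.79 ± 0.10 and 0.85 ± 0.10, a difference within mice of -0.058 ± 0.040 (SD). Among the caps, Psme1 was lower in C at 279, 311 and 339 CPM against 301, 345 and 380 CPM (-0.14 ± 0.02, adjusted p = 6e-06, edgeR). Psme4 was lower at 75.1, 83.8 and 87.3 CPM against 81.9, 88.5 and 102 CPM (-0.15 ± 0.03, adjusted p = 0.00026, edgeR). Psme1 did not pass among cells called G1 (0.045), nor Psme4 among those called G2M (0.0070). Psme3 was higher, at 64.9, 69.3 and 76.3 CPM against 54.3, 57.5 and 61.3 CPM (0.26 ± 0.04, adjusted p = 6.18e-07, edgeR). Psme2 did not pass over all cells (0.04 ± 0.03, adjusted p = 0.239). It was higher in C among cells called G1 (0.27, adjusted p = 1.39e-06, edgeR) and lower among those called G2M (-0.18, adjusted p = 0.0057). Among S cells it did not pass (0.03). Psmc3ip, which is not a subunit, had 43.3, 49.7 and 54.4 CPM in C and 13.5, 15.9 and 20.2 CPM in N, 3.07-fold (adjusted p = 3.62e-18). Psme2b (0.34 ± 0.08, adjusted p = 0.000835) and Psme3ip1 (0.09 ± 0.04, adjusted p = 0.0329) were higher too.

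The fractions also differed in called phase: G1 made up 16.0 ± 2.7% of C and 57.8 ± 4.3% of N cells, and G2M 49.6 ± 4.2% and 9.64 ± 2.1%. The comparison within each phase was added after the data were seen. Phases were called in each library alone, so C and N cells were scored apart. A called phase may therefore not hold like cells in both. The part of this in the values below was not tested. Among G1 cells 44 members were higher in C and 2 lower (30.7% and 31.3% of all genes), with a median log2 value of 0.59, and among S cells 42 were higher and 3 lower (30.2% and 32%), with a median of 0.37. All 31 core and cap genes were higher in both. Among G2M cells 5 were higher and 13 lower (25.7% and 25.4% of all genes), with a median of -0.03. The 5 were Psmc3 (0.27 ± 0.06), Psmc4 (0.21 ± 0.06), Psmg2 (0.36 ± 0.11), Psmb9 (0.24 ± 0.05) and Psmc3ip (1.44 ± 0.14). Psmd6 (-0.34 ± 0.07), Psmb10 (-0.32 ± 0.07), Psme1 (-0.27 ± 0.06) and Psme2 (-0.18 ± 0.05) were among the 13. N held 443 G2M cells in all, 24 to 121 per mouse, against 3653 in C, 219 to 765 per mouse. Without the 3 other symbols, the members' sum was 9821, 9698 and 8892 CPM in G1, S and G2M cells of C and 6972, 7690 and 8674 CPM in those of N.

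**Figure D5:**
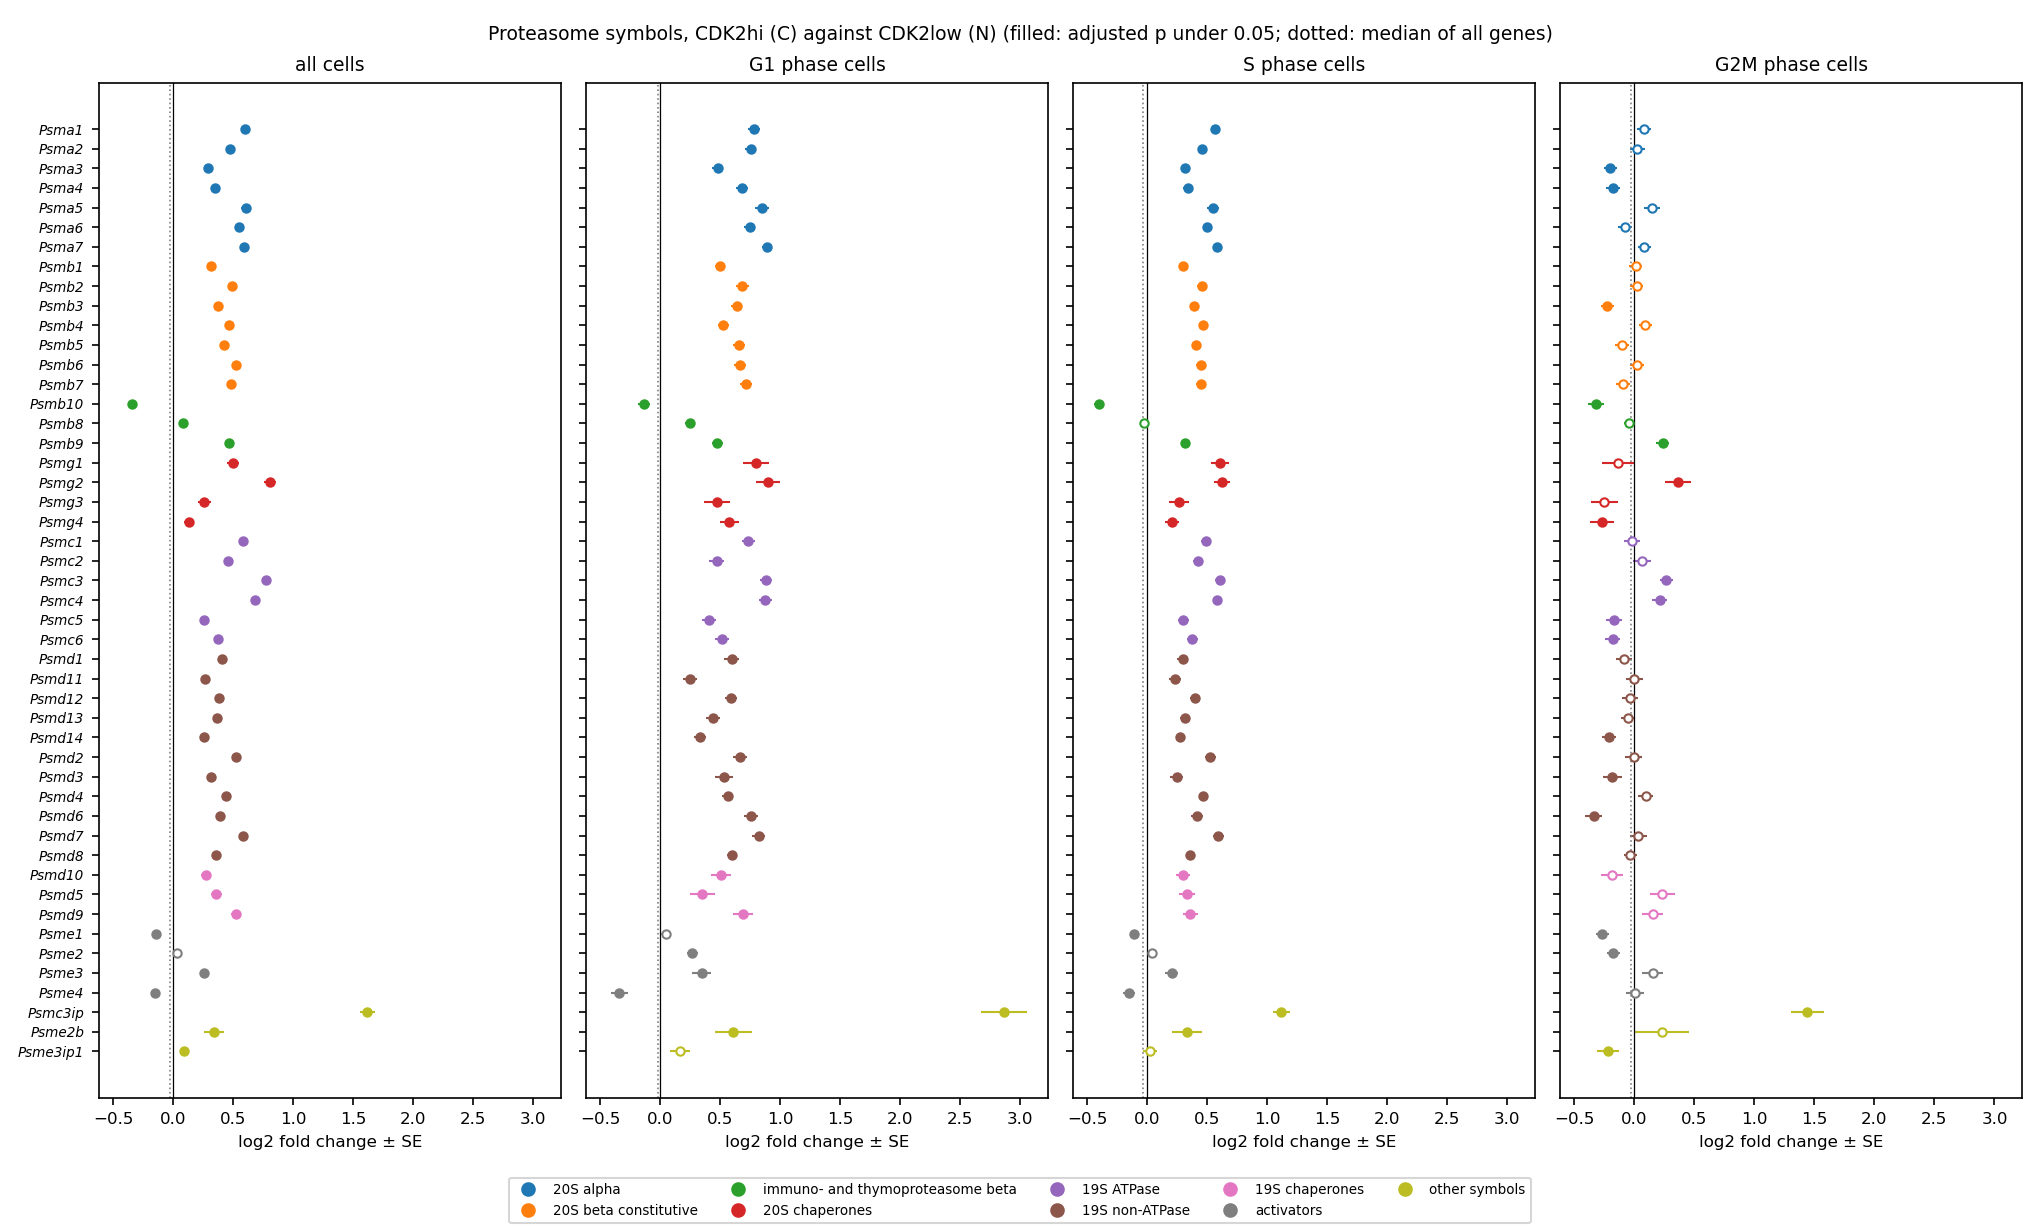
Log2 fold change ± SE (horizontal axes) of each of the 48 tested symbols (vertical axis, coloured by class), CDK2hi against CDK2low cells, in all cells and within cells called G1, S and G2M; filled points have an adjusted p under 0.05 and the dotted line is the median of all genes. The medians are 0.39 in all cells, 0.59 in G1, 0.37 in S and -0.03 in G2M cells. Phases were called in the C and N libraries apart.

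The fixed lists were counted in the sort too, where 36.5% of all genes were higher and 38.6% lower. Of the further parts and assembly factors 5 of 7 were higher in C and 1 lower, with Txnl1 at 0.74, Pomp at 0.18 and Adrm1 at 0.16 on the log2 scale. Uchl5 (0.87) and Usp14 (0.51) were higher and Ube3c did not pass (-0.07). Of the regulators Nfe2l1 (-0.42) and Ddi2 (-0.32) were lower and Nfe2l2 (0.32) and Ngly1 (0.16) higher, with Nfe2l1 at 17.2 to 24.4 CPM in C and 24.9 to 30.3 CPM in N. Substrate delivery gave 7 higher and 1 lower of 9, ubiquitin and its activating enzymes 4 higher and none lower of 6, and the anaphase-promoting complex 17 higher and none lower of 19. Of the 10 genes of peptide transport and MHC class I none was higher in C and 9 were lower, among them Nlrc5 (-0.49) and Tapbp (-0.50). The CCT subunits were higher in 8 of 8 (median 0.41), the mitochondrial ribosomal proteins in 66 of 78 (2 lower, median 0.36) and the cytosolic ones in 78 of 83 (1 lower, median 0.27). Naive or memory B cell markers summed to 155 ± 29.9 CPM in C and 380 ± 47.6 CPM in N. Most of that sum was Fcer2a, at 128 and 329 CPM, and of the 6 markers tested 4 were lower in C and 1 higher. Plasma cell markers summed to 1055 ± 84.3 and 923 ± 92.8 CPM. Of the 3 plasma cell markers tested, Jchain was higher in C (951 against 798 CPM), while Irf4 (4.95 against 7.44 CPM) and Xbp1 (98.9 against 116 CPM) were lower. GC B cell markers were lower in C in 8 of 9 and higher in 1 (sums of 3982 and 4842 CPM), and myeloid or dendritic markers lower in 2 of 2 (5.48 and 10.3 CPM). The part of cells with these markers in the result was not tested.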

How the data were processed

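The authors made the deposited UMI count matrices with Cell Ranger from droplet 5′ libraries. The file headers and the study's methods name version 8.0.1, and the submitters' processing notes list Cell Ranger 6.0.1, Seurat 5.1.0 and build mm39. Counts are deposited as whole UMIs per gene and barcode, with hashtag counts beside them. Cells were assigned to mice from the deposited hashtag counts and the authors' list of hashtags with HTODemux (Seurat 5.3.0, positive quantile 0.99), which removes cells with hashtags of more than 1 mouse (507 to 2705 per library). No other doublet caller was run. Cells with under 200 genes or over 10% mitochondrial UMIs were left out. For 2 mice listed in the sort, the hashtag gave no signal, and they were not used.

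UMIs were summed per mouse and tested with edgeR 4.0.16 (R 4.3.3; filterByExpr, TMM, quasi-likelihood test, Benjamini-Hochberg over all genes tested, threshold 0.05). All 5 groups of the time course entered 1 fit with the experiment as covariate, and the sort had the mouse as block. The pairing comes from the mouse names: deviations of same-named C and N samples correlated at 0.13 to 0.47. Each C sample correlated best with the N sample of its own mouse, and the reverse was not looked up. Mice were taken as replicates from the authors' list of mice. Alternatives included DESeq2 1.42.0. On simulated counts the test recovered 67% of changes of 0.3 and 100% of changes of 1 (log2) at 48 h among 10146 genes, 65% and 100% at 72 h among 10150 genes, and 85% and 100% in the sort among 10082 genes. False calls made up 5.65%, 6.25% and 7.5% of calls. The simulated counts held no effect of experiment or mouse, and 100 genes were changed at each size, fewer than were called in the data. These rates therefore need not hold for the comparisons themselves. Phases were called with Seurat's CellCycleScoring in each library alone. Each library of the time course held treated and untreated mice, whereas C and N were scored apart. Start sites came from GENCODE vM39. Intervals and depth reflect counting error and the spread between mice only.

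Genes named singly were the cutting subunits, the activators, Pomp and Nfe2l1 and the 3 other symbols. Added to these were, in each of 3 comparisons (48 h, 72 h, sort), the 5 members with the largest called change above an average log2 CPM of 4. Members and lists were chosen with earlier results of these data known, so no set test was run and no p was adjusted over the list alone. The study kept cells whose receptor genes had the B1-8hi pairing, and sorted cells of DZ phenotype, whereas all kept cells were used here. The pairing was found in 9208 of 13625 and 4369 of 10073 kept cells of the time course and in 4691 of 7448 C and 2719 of 4385 N cells, and using those cells only was an alternative. Figures were drawn with matplotlib 3.10.9.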

Additional observations from a re-analysis of the deposited data

Results flagged for a closer look

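The effect of anti-DEC-OVA differed between 48 h and 72 h for 12 named genes, by the contrast of both effects in edgeR's quasi-likelihood fit (48 h minus 72 h, log2). It was larger at 48 h for Psmc3ip (0.71, adjusted p = 4.96e-05), Psmg2 (0.60, 3.2e-05), Psmb7 (0.37, 0.000166), Psmc1 (0.36, 0.000229), Psma5 (0.35, 0.00246), Psmb5 (0.34, 0.00109), Psmc4 (0.34, 0.000216), Psmd6 (0.33, 0.000604), Psmc3 (0.32, 0.00058), Psmb6 (0.23, 0.00785) and Psme3 (0.20, 0.0439). It was smaller at 48 h for Psmb10 (-0.28, 0.0375).

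In 8 of 224 groups of mice 1 value stood apart from the rest by Dixon's criterion, which chance passes in about 1 of 20 groups. The alpha ring sum was 1498 CPM in 1 treated mouse at 72 h (group median 1760 CPM), and the sum of core chaperones was 179 CPM in 1 untreated mouse at 48 h (median 145 CPM). High single values were 250 CPM of Psmb5 (median 210 CPM) and 204 CPM of Psmc3 (median 179 CPM) in untreated mice at 72 h, and 181 CPM of Psmc1 in a treated mouse at 72 h (median 150 CPM). In untreated mice at 48 h, Psmd6 reached 116 CPM (median 94.9 CPM) and Psmg2 51.1 CPM (median 41.5 CPM). Psme3ip1 was low, at 41.9 CPM, in 1 mouse at 0 h (median 49.5 CPM).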

How the results depend on the processing

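Of 104 alternative counts, 91 stayed within 1.5 times of the reported one and 12 moved further. At 48 h the members called ranged from 30 (smaller experiment alone) to 42 (groups compared alone). Without a term for the experiment, 2 members were called in G1, 2 in S and 4 in G2M cells at 48 h. At 72 h the count was 1 with thinned cells, 0 without the experiment term, 4 in the larger and 0 in the smaller experiment alone. For the difference between 48 h and 72 h it was 18 with thinned cells, 21 with B1-8hi pairing cells only, 23 without the experiment term, 17 in the larger and 13 in the smaller experiment alone. For the sort, leaving out each mouse in turn gave 45 to 47 calls, and a fit without the replicate block, hence without pairing, gave 44. Among G2M cells alone the sort gave 18 calls, with more lower than higher. There the sign turned for the named genes Pomp (-0.22), Psmb5 (-0.11), Psmb7 (-0.095), Psmb8 (-0.042), Psme2 (-0.18), Psme3ip1 (-0.22) and Psme4 (0.0070). Of these, Psmb5, Psmb7, Psmb8 and Psme4 did not pass among G2M cells, and Psme2 had not passed in all cells. The sign also turned for Psmb8 among S cells (-0.026) and for Psme1 among G1 cells (0.045), where neither passed. Psme3ip1 at 48 h reversed with thinned cells (-0.077). The cause was not tested. Of 716 alternatives for single genes 661 kept direction and side of the threshold, 41 lost the call and 4 gained it. Psmb10 at 48 h lost it with thinned cells, B1-8hi pairing cells, no experiment term and the larger experiment alone, and Psme1 at 48 h gained it with thinned cells (-0.21, adjusted p = 0.016), B1-8hi pairing cells (-0.17) and the groups compared alone (-0.13). Psmb8 in the sort lost it with B1-8hi pairing cells and without the block. Depth limits low genes such as Psme2b and the G2M cells of N.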
